A study of Mus musculus with 7 samples.

Results

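NF-kappa-B is a family of transcription factors, made of pairs of Rel proteins, that switches on inflammatory, immune and survival genes. In resting cells the pairs are held in the cytoplasm by inhibitors of the IkB family. Signals from receptors such as Tlr4, which recognises bacterial lipopolysaccharide, activate the IkB kinases encoded by Chuk and Ikbkb, the inhibitors are phosphorylated and degraded, and the released factors enter the nucleus. In liver the pathway is known in hepatocytes as a protection against cell death and in Kupffer cells, the resident macrophages, as a driver of cytokine production. Some of its targets, among them Nfkbia and Tnfaip3, are its own brakes.

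The 10 genes described here are the kinases Chuk and Ikbkb, the subunits Nfkb1, Nfkb2, Rela and Relb, the brakes Nfkbia, Nfkbib and Tnfaip3, and the receptor Tlr4. Accessibility at these genes was read from ATAC-seq, in which a transposase cuts open chromatin and the number of reads in a region measures how open it is. Every region that overlapped a gene body or the 10 kb on either side of it was taken, which gave 33 of the 55680 regions counted in the series. The samples were liver tissue of male C57BL/6N mice, with 3 young samples from mice of 3 months and 4 aged samples from mice of 18 months, and no treatment or genotype separated them. By the design text of the series record, the 4 aged samples came from 3 animals, because 2 lobules of 1 liver entered as separate samples, whereas the methods count each aged sample as a biological replicate and name no shared animal. The labels do not say which samples would share it, and p-values over 4 aged samples take all of them as independent. The libraries held 4474652 to 25461110 counts in regions, and libraries of the same age differed by more than sampling noise.

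Values per sample are CPM, the counts of a region scaled to a common library total, after scaling by TMM. A change is the log2 fold change of aged over young with its standard error (SE). The SE was derived from edgeR's quasi-likelihood test, as the absolute log2 fold change over the square root of its F statistic. Unless an alternative setting is named, adjusted p stands for edgeR's quasi-likelihood test with Benjamini-Hochberg adjustment over all 55680 regions, and a region was called at an adjusted p under 0.05. The whole tissue was measured, so fewer cells of a type and less open chromatin per cell cannot be told apart.

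Of the 33 regions, 12 lay at a promoter of their own gene, meaning within 200 bp of an annotated start. Another 9 lay in introns, 2 in exons away from a start, 2 upstream and 8 downstream. In all, 7 regions also covered a start of another gene. For 5 of these it was only the other gene, namely Erlin1 at 2 regions near Chuk, Polb near Ikbkb, Sipa1 near Rela and Clasrp near Relb. The promoter region of Nfkb2 was shared with AC114539.1, and that of Nfkbib with Sirt2. None of the 33 sequences recurs nearly unchanged at another place in the genome, so reads were not split between copies at the members.

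The promoters of these genes differ in sequence, and 4 stretches are shown. Chuk is the kinase that the study displayed, Nfkbia and Tnfaip3 are brakes known as targets of NF-kappa-B itself, and the intron of Tlr4 is the region that was called. Accessibility was not tested against the motifs. Promoter entries of RefSeq on GRCm38.p6 were found for 6 of the 10 genes. There were none for Ikbkb, Nfkb1, Relb and Tlr4. The stretches of Chuk, Nfkbia and Tnfaip3 come from the 250 bases before the RefSeq start, without bases that lie in an annotated exon, and run from 5′ to 3′ on the strand of the gene, which is the minus strand for each of them. The stretch of Tlr4 is the middle 300 bases of the intronic region that was called, on the plus strand. Capitals mark matches to the kappa-B consensus, the motif bound by Rel pairs, searched on both strands.
Chuk, chr19:44107481-44107727: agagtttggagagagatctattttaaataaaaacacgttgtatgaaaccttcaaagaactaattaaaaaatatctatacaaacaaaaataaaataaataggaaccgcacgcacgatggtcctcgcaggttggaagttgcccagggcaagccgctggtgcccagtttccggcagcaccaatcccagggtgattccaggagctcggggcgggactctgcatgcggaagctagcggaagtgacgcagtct
Nfkbia, chr12:55492648-55492897: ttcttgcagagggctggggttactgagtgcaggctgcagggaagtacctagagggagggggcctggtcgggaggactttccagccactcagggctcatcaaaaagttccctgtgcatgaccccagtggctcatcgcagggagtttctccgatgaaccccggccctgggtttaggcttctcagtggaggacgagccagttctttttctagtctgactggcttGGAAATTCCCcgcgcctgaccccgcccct
Tnfaip3, chr10:19015411-19015547: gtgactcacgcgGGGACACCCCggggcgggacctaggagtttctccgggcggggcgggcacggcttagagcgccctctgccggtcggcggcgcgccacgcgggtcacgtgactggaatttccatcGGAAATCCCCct
Tlr4 intron, chr4:66883021-66883320: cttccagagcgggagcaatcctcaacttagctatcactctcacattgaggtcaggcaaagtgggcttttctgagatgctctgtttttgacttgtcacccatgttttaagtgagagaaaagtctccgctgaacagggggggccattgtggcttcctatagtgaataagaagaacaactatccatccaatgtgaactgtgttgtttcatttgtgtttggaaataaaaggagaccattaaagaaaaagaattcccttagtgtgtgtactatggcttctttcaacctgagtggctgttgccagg

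The Nfkbia stretch held 1 kappa-B match, which begins 29 bases before the start. The Tnfaip3 stretch held 2, which begin 125 and 12 bases before the start, and 1 match to TGANTCA, the AP-1 site, near its 5′ end, a motif found in 7.81% of promoter windows. The other printed stretches held no AP-1 match. The stretch of Chuk, the 192 exon-free bases of Rela, the 90 of Nfkbib and the 250 before a second RefSeq start of Tnfaip3 held no kappa-B match. At Nfkb2 annotated exons covered most of the bases before the starts, so no stretch is shown, and the 300-base window at its first start held 3 kappa-B matches. The kappa-B motif occurred in 8.46% of the 32851 promoter windows of 300 bases in the RefSeq table. Neither motif occurred in the Tlr4 stretch or in the whole region of 903 bases. The middle 300 bases of all regions held kappa-B in 6.58% and the AP-1 site in 9.22% of cases. A match is a run of letters and does not show that a factor was bound, and the absence of one shows only that these letters are not in the window.

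Over the 33 regions, accessibility in aged liver was called higher at 1 and lower at 0. The called region lies in an intron of Tlr4 and had the largest change of the 33 in either direction, with a log2 fold change of 0.97 ± 0.21 (SE). The background was 2.44% of all regions called higher and 3.3% called lower, so a single call among 33 regions is close to what the whole table holds. At an unadjusted p under 0.05 there were 8 regions, 3 higher and 5 lower, against 24.6% of all regions. DESeq2 also called 1 region higher and 0 lower. The log2 fold change was above 0 at 18 regions and below 0 at 15, with a median of 0.01, beside a median of -0.04 over all regions.

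Promoters and other regions of the 10 genes leaned in different directions, as they did over the whole table. Each gene was represented by its strongest promoter region, by mean log2 CPM over all samples. In 8 of these 10 the log2 fold change was positive, the median was 0.20 and the range -0.39 to 0.39. None of the 10 was called, and the smallest adjusted p among them was 0.104, at Nfkbib. Among all 15422 promoter regions 61.1% were above 0 and the median was 0.09, with 4.48% called higher and 2.06% called lower. Of the 21 regions away from their own gene's promoters 9 were above 0 and 12 below, with a median of -0.05. Among all 40258 regions that were not at any promoter 41.0% were above 0 and the median was -0.09. The 21 include 5 regions at promoters of other genes, a kind that the 40258 leave out. The difference between promoters and other regions was not tested.

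The direction of the promoters depended on the scaling. Strong regions had higher values in aged liver than weak ones across the whole table, with a median log2 fold change of -0.42 in the weakest of 10 equal bins of regions and 0.28 in the strongest. Of the 10 promoter regions 9 were stronger than the median region and Tlr4 was just below it. With offsets fitted on mean abundance, the median of the 10 promoters became -0.07 and 4 of 10 were above 0, beside a median of -0.03 for all promoter regions. Scaling to the total counts lowered the median of all regions by 0.12 and left the 10 promoters at a median of 0.08, with 6 above 0.

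**Figure D1:**
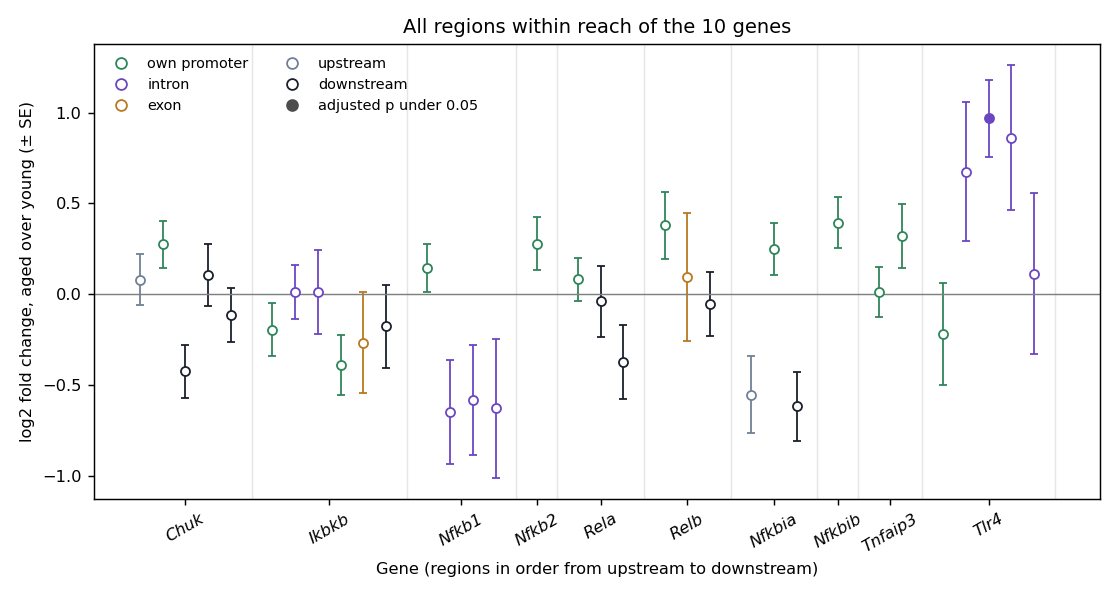
Log2 fold change of aged over young (y axis, bars show the SE) for the 33 regions, grouped by gene and ordered from upstream to downstream (x axis), coloured by position. The filled point is the intronic Tlr4 region at 0.97, the only one with an adjusted p under 0.05, and the open points run from -0.65 to 0.86.

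Chuk encodes the kinase IKK-alpha, which acts in the canonical IkB kinase complex and drives the alternative pathway by way of Nfkb2. It was among the genes whose accessibility the study displayed, so it was picked on these libraries. Its promoter region (chr19:44106571-44107826) had 37.5, 38.0 and 37.7 CPM in the young samples and 47.4, 35.9, 52.5 and 46.7 CPM in the aged ones. Aged replicates 1, 3 and 4 lay above all young samples and aged replicate 2 below them, so the groups overlapped. The means were 37.7 ± 0.232 CPM (SD, n = 3) and 45.6 ± 6.997 CPM (SD, n = 4), and the log2 fold change was 0.28 ± 0.13 (adjusted p = 0.206). It was 0.16 with total counts and 0.083 with offsets on mean abundance, and passed the threshold in 0 of 21 alternative settings.

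The other 4 regions at Chuk lie outside the gene body. The region chr19:44068967-44070342, downstream of Chuk and at the promoter of its neighbour Erlin1, held 34.3, 32.5 and 35.5 CPM in young samples and 29.5, 21.6, 29.0 and 21.1 CPM in aged ones. Every aged sample was below every young sample there, a pattern found in 11.6% of all regions. Its log2 fold change of -0.42 ± 0.15 did not pass the test (adjusted p = 0.0947), and it passed under 1 of 21 settings, total counts (0.0439). The remaining 3 regions had log2 fold changes from -0.11 to 0.10 with overlapping groups.

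Ikbkb encodes IKK-beta, the kinase that phosphorylates IkB proteins in the canonical pathway. None of its 6 regions was called. The canonical start of Ikbkb lies in chr8:22706007-22706902, where young samples had 18.8, 16.9 and 19.9 CPM and aged samples 16.6, 15.9, 16.1 and 15.7 CPM. All aged samples were below all young ones by a small margin, and the log2 fold change of -0.20 ± 0.15 did not pass the test (adjusted p = 0.432). By mean CPM over the 7 samples, though not per kb, the stronger promoter region was an internal one, chr8:22693404-22694740. It had 22.4, 17.1 and 22.4 CPM in young and 17.1, 15.9, 16.8 and 12.7 CPM in aged samples. There the groups just overlapped and the log2 fold change was -0.39 ± 0.17 (adjusted p = 0.168). The other 4 regions at Ikbkb, 1 of which is the promoter of Polb, ranged from -0.27 to 0.01. The lowest of them, in an exon, was -0.10 without aged replicate 4 and -0.45 without aged replicate 3.

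The 4 subunit genes had open promoters in all 7 libraries. Rela encodes p65, the subunit that activates transcription in the main canonical pair with p50. Its promoter region (chr19:5636594-5638978) had 63.1, 58.2 and 57.6 CPM in young samples and 59.1, 54.5, 67.0 and 72.0 CPM in aged ones. The groups overlapped fully, and the log2 fold change of 0.08 ± 0.12 had the smallest SE of the 33 regions. Over the 21 alternative settings it ran from -0.17 with offsets on mean abundance to 0.14. Downstream of Rela, chr19:5648499-5649843 was the strongest region by mean CPM that was not at a promoter of its own gene. It held 37.4, 29.1 and 28.5 CPM in young and 26.5, 20.4, 36.7 and 39.8 CPM in aged samples, with aged samples on both sides of the young ones and a log2 fold change of -0.04 ± 0.20. At the promoter of Sipa1 the log2 fold change was -0.37 ± 0.20 (adjusted p = 0.270).

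Relb and Nfkb2 encode the pair of the alternative pathway, RelB and p52, the latter cut from the precursor p100. The Relb promoter region (chr7:19628430-19629652) held 66.3, 59.8 and 40.0 CPM in young samples and 65.5, 54.9, 77.0 and 92.4 CPM in aged ones. Only aged replicates 3 and 4 exceeded the young samples, young replicate 3 was the lowest of the 7, and the log2 fold change was 0.38 ± 0.18 (adjusted p = 0.218). It was 0.22 without young replicate 3, 0.24 without aged replicate 4 and 0.12 with offsets on mean abundance. At Nfkb2 the promoter region (chr19:46304071-46306071) had 58.0, 55.3 and 64.8 CPM in young samples and 59.2, 60.2, 79.8 and 88.1 CPM in aged ones. The highest values were again those of aged replicates 3 and 4, the groups overlapped, and the log2 fold change was 0.28 ± 0.15 (adjusted p = 0.257). It was 0.16 without aged replicate 4 and 0.0076 with offsets on mean abundance. Nfkb2 had no other region, and the 2 other regions of Relb, in an exon and at the promoter of Clasrp, had log2 fold changes of 0.09 and -0.05.

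Nfkb1 encodes p105, the precursor of p50, and it combined a strong promoter with 3 weak intronic regions. The promoter region (chr3:135690420-135692033) had 36.5, 34.7 and 49.3 CPM in young samples and 45.2, 44.1, 43.7 and 42.8 CPM in aged ones. The aged samples sat between the young ones, and the log2 fold change was 0.14 ± 0.13 (adjusted p = 0.533). It was 0.32 without young replicate 3, 0.043 without young replicate 2 and -0.046 with offsets on mean abundance. In the intron at chr3:135674783-135675254 young samples had 3.80, 3.63 and 3.62 CPM and aged samples 2.72, 1.57, 2.10 and 2.67 CPM. Every aged sample was below every young one, from 8 to 96 counts per library, and the log2 fold change of -0.65 ± 0.29 did not pass the test (adjusted p = 0.177). The other 2 introns, with 7 counts in the shallowest aged library, had log2 fold changes of -0.58 ± 0.30 and -0.63 ± 0.38 with overlapping groups. The latter was -1.11 without aged replicate 2 and -0.40 without young replicate 2. With offsets on mean abundance the 3 introns had -0.33, -0.30 and -0.38 in the same order. Regions of the strength of these 3 had medians of -0.29 and -0.25 in the whole table, so they were read against those values.

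Nfkbia encodes IkB-alpha, the inhibitor that NF-kappa-B itself induces to end the response. Its promoter region, which holds the kappa-B match shown above, was the most open of the 10, and the regions on both sides of the gene had lower values in all aged samples. The promoter region (chr12:55491162-55493116) held 116.9, 108.3 and 85.8 CPM in young samples and 116.4, 98.7, 135.4 and 143.8 CPM in aged ones. Aged replicates 3 and 4 were above all young samples and the others were not, and the log2 fold change was 0.25 ± 0.14 (adjusted p = 0.307). It was 0.15 without young replicate 3 and turned to -0.094 with offsets on mean abundance. Downstream, chr12:55480281-55481239 had 13.9, 16.0 and 14.5 CPM in young and 7.38, 10.8, 11.4 and 9.80 CPM in aged samples. The groups did not overlap, and the log2 fold change was -0.62 ± 0.19 (adjusted p = 0.0681). This region passed under 2 of 21 settings, scaling to total counts and limma voom, where the adjusted p was 0.0389 and 0.0352.

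Upstream of Nfkbia, chr12:55498783-55499655 had 7.50, 7.86 and 7.56 CPM in young samples and 4.92, 6.08, 4.67 and 5.22 CPM in aged ones. Here too all aged samples were below all young ones, and the log2 fold change was -0.55 ± 0.21 (adjusted p = 0.127). The opposite signs at the promoter and at its flanks were not tested against each other.

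**Figure D2:**
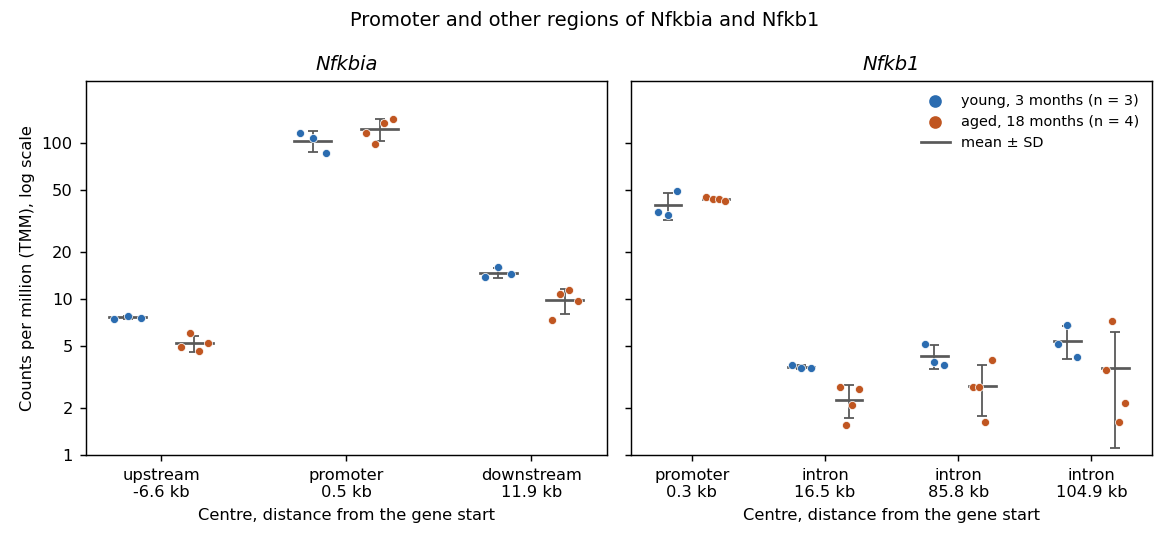
CPM of each sample (y axis, log scale) at the 3 regions of Nfkbia and the 4 regions of Nfkb1, by distance of the region's centre from the gene start (x axis). Points are samples and lines the mean ± SD. The aged points are below all young points upstream and downstream of Nfkbia and in 1 intron of Nfkb1, and overlap with them at both promoters.

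Nfkbib encodes IkB-beta, a second inhibitor of the same family. Its promoter region (chr7:28765862-28767126) also covers the start of Sirt2, a deacetylase gene, and a change there cannot be assigned to one of the 2 genes. It had 46.8, 44.5 and 36.7 CPM in young samples and 56.8, 43.5, 61.9 and 62.6 CPM in aged ones. Aged replicate 2 lay within the young samples and the other aged samples lay above all of them. The means were 42.6 ± 5.29 CPM (SD, n = 3) and 56.2 ± 8.83 CPM (SD, n = 4), and the log2 fold change of 0.39 ± 0.14 did not pass the test (adjusted p = 0.104). It passed under 3 of 21 settings, which were offsets on GC content (0.0345), leaving out aged replicate 2 (0.0417) and summing aged replicates 2 and 4 (0.0452). With offsets on mean abundance the log2 fold change fell to 0.17 (adjusted p = 0.523 in that fit).

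Tnfaip3 encodes A20, an enzyme that edits ubiquitin chains and shuts the pathway off. The main promoter region (chr10:19014466-19015875), with the pair of kappa-B matches shown above, had 29.3, 30.7 and 36.2 CPM in young samples and 29.1, 27.9, 36.7 and 35.4 CPM in aged ones. The groups were interleaved, with a log2 fold change of 0.01 ± 0.14. A weaker region inside the gene at another annotated start, chr10:19008825-19009686, had 9.26, 9.11 and 10.5 CPM in young and 10.9, 12.0, 13.3 and 12.0 CPM in aged samples. Every aged sample was above every young one, as in 10.2% of all regions and 20.4% of promoter regions. The log2 fold change of 0.32 ± 0.18 did not pass the test (adjusted p = 0.280). It was 0.20 with total counts.

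**Figure D3:**
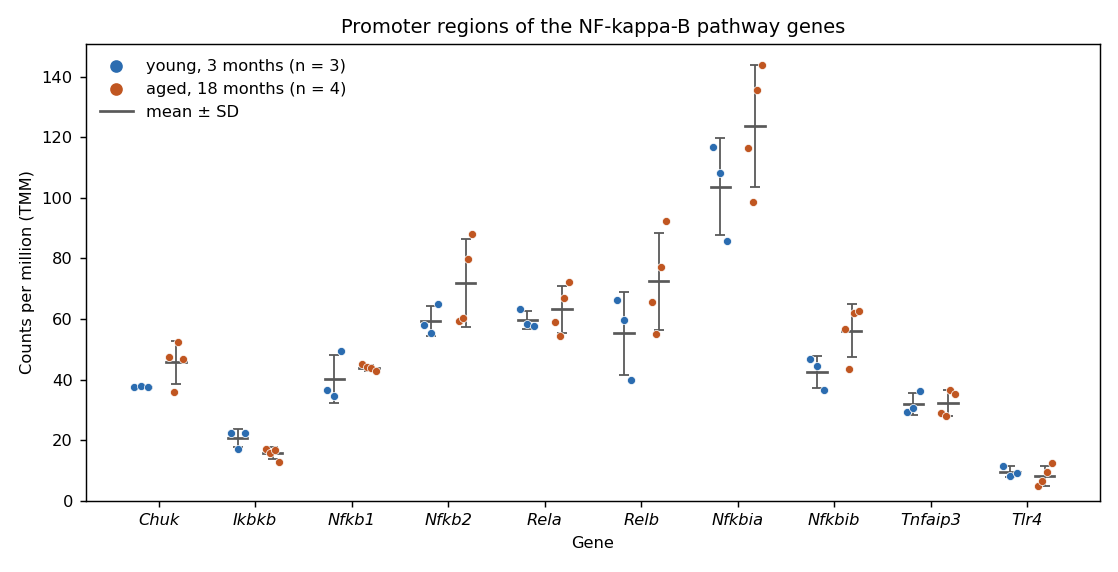
CPM of each sample (y axis) at the strongest promoter region of each of the 10 genes (x axis), with points for the 3 young and 4 aged samples and lines for the mean ± SD. Young and aged points overlap at every gene. Ikbkb is shown by its internal region, and at its canonical start, not shown, every aged sample was below every young one.

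Per kb of region, the mean level over the 7 libraries fell from 58.9 CPM at Nfkbia to 53.2 at Relb, 39.8 at Nfkbib, 33.6 at Chuk, 33.2 at Nfkb2, 26.2 at Nfkb1, 25.9 at Rela, 22.8 at Tnfaip3, 13.3 at Ikbkb and 4.82 at Tlr4. The median of all regions was 10.8 CPM per kb. Neighbours in this order from Nfkbia to Tnfaip3 overlapped in their ranges over samples, whereas Ikbkb was below Tnfaip3 in all 7 libraries, and Tlr4 was below Ikbkb in all 7, without overlap of the ranges. For Ikbkb this is the internal promoter region. The region at its canonical start was at 19.1 CPM per kb, and its range of 17.5 to 22.2 overlapped that of Tnfaip3, 19.8 to 26.0. These levels depend on the width given to each region.

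Tlr4 had the weakest promoter and the only called region. The promoter region (chr4:66827218-66829051) had 11.6, 8.13 and 9.04 CPM in young samples and 4.92, 6.47, 9.34 and 12.3 CPM in aged ones. Aged samples lay on both sides of the young ones, and the log2 fold change was -0.22 ± 0.28 (adjusted p = 0.675). Over the 21 settings it ran from -0.55 with the replicate block to -0.0033 without aged replicate 1. The called region, chr4:66882719-66883621, lies 54517 bp from the nearest annotated Tlr4 start, in an intron of the longest annotated transcript only (the others end before it). It had 6.02, 8.995 and 9.87 CPM in young samples and 15.0, 20.4, 16.1 and 13.5 CPM in aged ones.

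Every aged sample exceeded every young sample at this intron, and the means were 8.29 ± 2.02 CPM (SD, n = 3) and 16.3 ± 2.96 CPM (SD, n = 4). The log2 fold change was 0.97 ± 0.21 (adjusted p = 0.0229), from 60 to 238 counts per library. Over 21 alternative settings the log2 fold change stayed between 0.79 and 1.09 and the adjusted p ran from 0.00132 to 0.0967, with 16 settings under 0.05. The call was lost without young replicate 1 (0.0967), young replicate 2 (0.0674), aged replicate 1 (0.0608) or aged replicate 3 (0.0662), and with aged replicates 1 and 3 summed (0.0566). The number of calls over all regions also fell in these fits, for instance from 3198 to 55 higher and 133 lower without young replicate 1.

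The other 3 intronic regions of Tlr4 also lie inside the longest transcript. The closest to the called one, chr4:66887973-66888204, had 1.02, 3.33 and 2.47 CPM in young samples and 4.39, 6.28, 4.67 and 2.29 CPM in aged ones. Aged replicate 4 fell among the young samples, and the log2 fold change of 0.86 ± 0.40 did not pass the test (adjusted p = 0.202), and it passed under 1 of 20 settings, the replicate block (0.0356). The log2 fold change was 0.53 without young replicate 1 and 1.39 without young replicate 2. The intron at chr4:66852058-66852455 had a log2 fold change of 0.67 ± 0.38 and that at chr4:66913727-66914039 of 0.11 ± 0.44, with 5 to 37 and 3 to 34 counts per library. Neither passed under any setting. The former had a log2 fold change of 0.39 without aged replicate 2 and 1.12 with offsets on mean abundance.

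**Figure D4:**
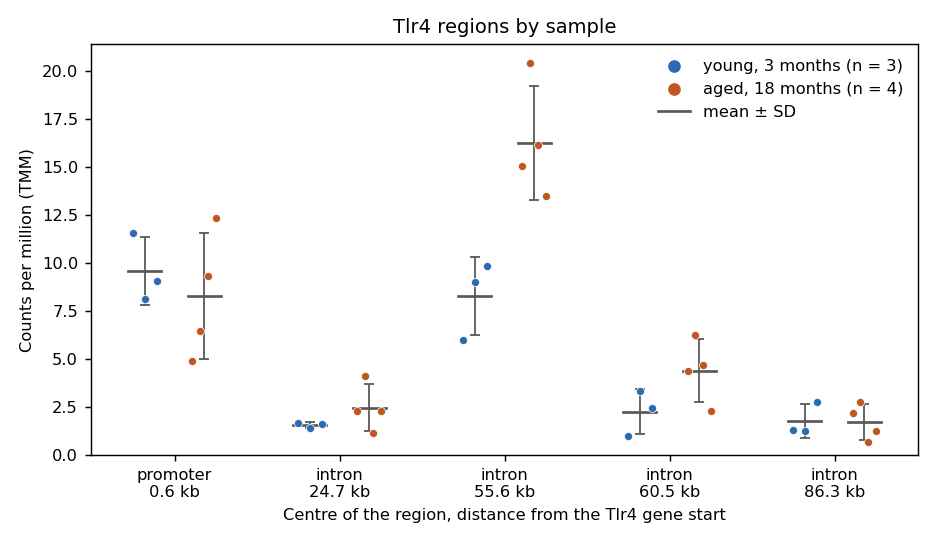
CPM of each sample (y axis) at the promoter region and the 4 intronic regions of Tlr4, by distance of the region's centre from the gene start (x axis), with points for samples and lines for the mean ± SD. At the third region the aged samples sit between 13.5 and 20.4 CPM, all above the young samples at 6.02 to 9.87 CPM, and at the other regions the groups overlap.

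Tlr4 is known from macrophages and other non-parenchymal cells, so markers of the cell types in liver were read in the same libraries. Of 10 Kupffer cell and macrophage markers only Clec4f had a promoter region, at 2.22 to 2.65 CPM in young and 0.588 to 2.80 CPM in aged samples, and Adgre1 and Csf1r were among the 9 without one. The 4 of 6 sinusoidal endothelial markers with a promoter region summed to 67.7 to 74.5 CPM in young and 53.0 to 87.1 CPM in aged samples. Most of that sum was Stab2, at 42.6 ± 0.972 CPM in young (SD, n = 3) and 44.1 ± 11.2 CPM in aged samples (SD, n = 4). The other 3 had log2 fold changes below 0, and Fcgr2b, at -0.60 ± 0.21 (adjusted p = 0.102), was lower in every aged sample. The 4 of 6 stellate markers summed to 32.4 to 40.5 CPM in young and 20.8 to 31.8 CPM in aged samples, and the sum was lower in every aged sample. Most of that difference came from Reln, at 18.7 ± 2.10 CPM in young (SD, n = 3) and 11.7 ± 2.67 CPM in aged samples (SD, n = 4, adjusted p = 0.0586), and the groups overlapped at Lrat, Ecm1 and Colec11. Of the lymphocyte markers, 1 of 6 for T cells (Lck, at 10.6 to 12.8 CPM in young and 10.7 to 13.6 CPM in aged samples) and 0 of 5 for B cells had a promoter region. The 3 of 5 cholangiocyte markers summed to 43.8 to 52.0 CPM in young and 39.4 to 56.9 CPM in aged samples, mostly from Sox9, while Epcam (-0.77 ± 0.29 on the log2 scale, adjusted p = 0.116) was lower in every aged sample. All 8 hepatocyte markers had one, summing to 653 to 729 CPM in young and 801 to 928 CPM in aged samples. Among these markers only Apoa1, which encodes the main protein of high-density lipoprotein, was called, at 187 ± 15.3 CPM in young (SD, n = 3) and 271 ± 38.9 CPM in aged samples (SD, n = 4). That call held under 11 of 21 settings, with log2 fold changes from 0.077 to 0.63 and adjusted p up to 0.769, the latter with offsets on mean abundance. The median log2 fold change was 0.27 for the hepatocyte, -0.27 for the sinusoidal, -0.39 for the stellate and -0.05 for the cholangiocyte list. Regions in the bins of strength of these lists had medians of 0.28, -0.11, -0.18 and -0.29 in that order. With offsets on mean abundance the hepatocyte median was -0.0048, with 4 of 8 above 0. The other lists then had -0.18, -0.11 and -0.24. The part of cell composition in the values of the 10 genes was not tested.

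The wider pathway was looked for at the promoters of 71 further genes in 5 lists. Of these 63 had a promoter region, 7 had none and 1, Skp1, was not read because the annotation does not hold that symbol. Of the 63 regions 2 were called higher and 0 lower, or 3.17% called higher beside the background of 4.48% of all promoter regions. Traf2, an adaptor of the TNF receptor, had 38.5, 41.7 and 37.0 CPM in young samples and 64.1, 50.2, 60.7 and 65.4 CPM in aged ones. All aged samples were above all young ones, and the log2 fold change was 0.62 ± 0.12 (adjusted p = 0.0146), with the call kept under 16 of 21 settings. Btrc, which encodes the beta-TrCP receptor that marks phosphorylated IkB for ubiquitination, had 65.9, 65.2 and 58.7 CPM in young samples and 89.4, 76.1, 81.9 and 86.3 CPM in aged ones. The groups did not overlap, the log2 fold change was 0.40 ± 0.11 (adjusted p = 0.0449), the region also covers a start of 1700016H03Rik, and the call was kept under 6 of 21 settings. Over these settings the log2 fold change of Btrc ran from 0.12 with offsets on mean abundance (adjusted p = 0.55 in that fit) to 0.44, and that of Traf2 from 0.40 to 0.70.

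The calls of Traf2 and Btrc were both lost without young replicate 1, young replicate 2, aged replicate 1 or aged replicate 3, and that of Btrc also without young replicate 3 or aged replicate 4. The share of the 63 regions called higher depended on the test and scaling. By DESeq2 it was 11 regions or 17.5%, beside 10% of all promoter regions, and with offsets on GC content 12 regions or 19%, beside 14%. With limma voom it was 7 regions or 11.1% beside 7.87%, and with offsets on mean abundance 0 regions beside 0.195%. With the replicate block it was 1 region or 1.59% beside 3.37%. Whether the 63 regions differ from other promoters was not tested.

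By role, the median log2 fold change was 0.25 for the 10 genes of the kinase complex and its activators, 9 of which were above 0 and none of which was called. Ubiquitin ligases and brakes had a median of 0.28, with 17 of 17 above 0 and 1 called. Adaptors had 0.13, with 11 of 18 above 0 and 1 called. Other Rel and IkB family genes had 0.01 over 6 and receptors 0.00 over 12, with none called in either. The 21 promoter regions of 22 target genes had a median of 0.06, with 11 above 0 and none called, and 8 targets, among them Tnf, Il1b and Il6, had no promoter region. The median of all promoter regions was 0.09. Regions in the bins of strength that these lists fall in had medians, taken over each list, of 0.22 for the kinase complex list, 0.28 for ubiquitin ligases and brakes, adaptors and targets, 0.14 for other Rel and IkB genes and 0.12 for receptors. With offsets on mean abundance the medians moved to 0.063 for ubiquitin ligases and brakes (12 of 17 above 0), 0.040 for the kinase complex list (7 of 10), -0.019 for adaptors (8 of 18), -0.058 for other Rel and IkB genes (1 of 6), -0.17 for receptors (2 of 12) and -0.094 for targets (6 of 21), beside -0.029 for all promoter regions.

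Groups without overlap, with all aged samples higher, were found at 8 of 17 ubiquitin ligases and brakes, 7 of 18 adaptors, 4 of 10 genes of the kinase complex list, 2 of 6 other Rel and IkB family genes, 4 of 21 target regions and 1 of 12 receptors, beside 20.4% of all promoter regions. All aged samples were lower at 1 of 12 receptors and 2 of 21 target regions, beside 8.88% of all promoter regions, and these 3 are named here after their values were seen. Tnfrsf11a, which encodes the receptor RANK, had 7.85 ± 1.77 CPM in young (SD, n = 3) and 4.85 ± 0.326 CPM in aged samples (SD, n = 4), and its log2 fold change was -0.71 ± 0.23 (adjusted p = 0.0790). Cxcl2, a neutrophil chemokine, had 3.81 ± 0.708 CPM in young (SD, n = 3) and 1.56 ± 0.596 CPM in aged samples (SD, n = 4), and its log2 fold change was -1.18 ± 0.33 (adjusted p = 0.0533). Vcam1, an endothelial adhesion molecule, had 4.29 ± 0.913 CPM and 2.41 ± 0.813 CPM, and its log2 fold change was -0.87 ± 0.34 (adjusted p = 0.128). None of these 3 passed the test.

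**Figure D5:**
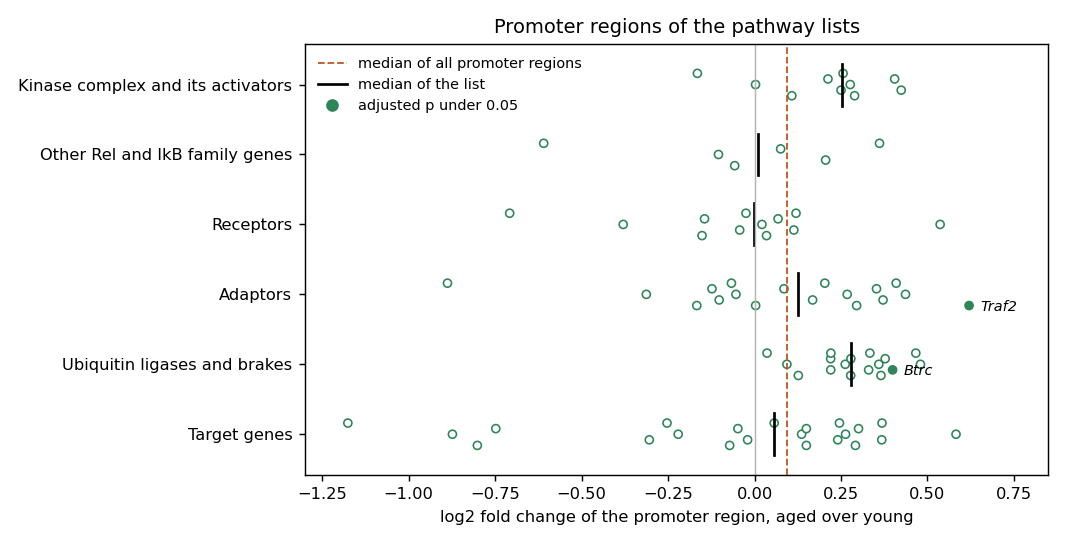
Log2 fold change of aged over young at the promoter regions of each pathway list (x axis), 1 row for each list. Points are genes, black bars the median of the list and the dashed line the median of all promoter regions at 0.09. Traf2 at 0.62 and Btrc at 0.40 are the filled points with an adjusted p under 0.05.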

How the data were processed

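Nuclei of liver tissue were tagmented by the Omni-ATAC protocol. The authors deposited raw counts of reads per region, with 1 column for each of the 7 samples and no normalization. According to the study's methods and the submitters' processing notes, the authors trimmed reads (cutadapt 1.13), aligned them to GRCm38 (Bowtie2 2.4.1), kept properly paired reads with mapping quality above 10, discarded duplicate and mitochondrial reads, ran MACS2 2.2.7 on every library, merged peaks found in at least 2 libraries and counted reads with featureCounts. A region therefore exists only where peaks were called, and its width was set by them.

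All 55680 regions were fitted in edgeR 4.0.16 (R 4.3.3) with TMM normalization, age as the only factor and no filter, which was tested on simulated data. Regions were annotated with GENCODE M21, promoters being starts ± 200 bp. Near-identical copies were searched with minimap2 2.31 at 80% coverage and 95% identity. Log2 CPM used a prior count of 2. Alternatives were DESeq2 1.42.0, limma 3.58.1 (voom), other scalings and filters, left-out replicates, summed pairs of aged samples and a replicate block.

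Named regions were the strongest promoter region of each of the 10 genes, every region that was called or without overlap between groups, the strongest region not at a promoter, and called promoters of the lists. The genes and lists were chosen with earlier results of these data known. The samples are separate tissue samples, and intervals from counts alone are not given. The depth, from 4474652 to 25461110 counts in regions for each sample, limits weak regions most.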

Additional observations from a re-analysis of the deposited data

How the results depend on the processing

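The 33 regions gave 1 called higher in the edgeR fit used above and 0 to 2 when single replicates were left out. They gave 2 with offsets on GC content, 0 with aged replicates 1 and 3 summed and 2 with aged replicates 2 and 4 summed. At a threshold of 0.01 there were 0. Called lower were 0 in that edgeR fit, 2 with total counts and 1 with limma voom. The count did not move with filterByExpr, which kept all 33 regions, or with a mean count of at least 50, which kept 27, or when only gene bodies were taken or regions at promoters of other genes were dropped. The median of the 10 promoters moved to -0.070 with offsets on mean abundance. Over all regions, calls higher were 58.8% of calls by DESeq2, 15.6% with total counts and 63.4% with offsets on GC content. In the edgeR fit used above they were 42.5%. The study used DESeq2 and gave 2760 sites as more and 1931 as less accessible, the same counts as the DESeq2 fit here.

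Deviations from the group means of same-numbered samples had correlations of -0.12, 0.06 and 0.03. Such deviations cancel within a group, so these values cannot settle whether the replicate numbers pair the samples. With a replicate block the region count was 2 higher, the 10 promoters kept a median of 0.16, and the calls over all regions rose from 1360 to 1485 higher and from 1838 to 2593 lower.

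For the 63 pathway promoters, 2 were called higher in the edgeR fit used above. The added refits were chosen after seeing the data. They gave 11 by DESeq2, 1 with total counts, 7 with limma voom and 1 with a mean count of at least 50. With offsets on mean abundance there were 0, and with offsets on GC content 12. Leaving out single replicates gave 0 to 6. Summing aged replicates 2 and 4 gave 9, and summing pairs 1 and 3, 1 and 4, 2 and 3 or 3 and 4 gave 1. The replicate block gave 1. Called lower were 1 with total counts and 1 with the replicate block, and 0 otherwise. The causes of these moves were not tested.

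Of 687 refitted values of the 33 regions, 619 kept direction and side of the threshold and 56 changed sign, none of them called. With offsets on mean abundance the log2 fold change became -0.086 at Ikbkb chr8:22700851-22701699, -0.046 at the Nfkb1, -0.17 at the Rela, -0.094 at the Nfkbia and -0.13 at the Tnfaip3 promoter. With total counts it became -0.012 and -0.039 at Chuk chr19:44067283-44067919 and chr19:44110132-44110874, -0.11 and -0.11 at Ikbkb chr8:22696376-22696693 and chr8:22700851-22701699, -0.038 at the Rela and -0.11 at the Tnfaip3 promoter, -0.016 at the Relb exon and -0.0028 at Tlr4 chr4:66913727-66914039. With a mean count of at least 50 it became -0.0403 and -0.0405 at these Ikbkb introns and -0.0397 at the Tnfaip3 promoter, and with the replicate block 0.027 at the Polb promoter, -0.10 at Ikbkb chr8:22696376-22696693 and -0.0455 at the Tnfaip3 promoter. Limma voom gave -0.046 at the Relb exon, and offsets on GC content 0.052 downstream of Rela. Summing pairs of aged samples gave 0.069 downstream of Rela, -0.0015 and -0.0027 at the Relb exon, -6.06e-05 at Tlr4 chr4:66913727-66914039, -0.014, -0.0045, -0.0062, -0.0043 and -0.027 at the Ikbkb introns and -0.017 and -0.039 at the Tnfaip3 promoter. Leaving out single replicates gave -0.31 to 0.033 at the Polb promoter, -0.082 to 0.10 and -0.049 to 0.16 at the Ikbkb introns, -0.19 to 0.11 downstream of Rela, -0.18 to 0.030 at the Clasrp promoter, -0.14 to 0.31 at the Relb exon, -0.14 to 0.47 at Tlr4 chr4:66913727-66914039 and -0.051 to 0.11 at the Tnfaip3 promoter.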
